A study of Mus musculus with 37 samples.

Results

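Astrocyte marker genes were followed in 37 polyA RNA libraries of mouse neurons, from 4 experiments that set controls against groups labelled for deletion, knockdown or overexpression of the methylcytosine dioxygenase Tet2. The 10 genes were chosen by name, as genes that mark astrocytes in mouse brain: Slc1a2, Slc1a3, Aqp4, Slc4a4, Ttyh1, Cldn10, Aldoc, Aldh1l1, Gfap and Clu. All 10 were found among the 24411 genes of each of the 4 deposited tables, 1 per experiment. The rule for membership is the gene's name and uses no measured value, but the set was drawn up with earlier results of these data known.

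The first experiment used neuronal nuclei of the hippocampus from C57/Bl6 mice, 4 labelled WT and 3 labelled CamKIIaCreERt2;Tet2 cKO (n = 4 and n = 3). The series' design text gives Tet2 fl/fl alleles to both genotypes, so that only the cKO mice carried the Cre. Cre in this line is driven by the CamKIIa promoter, which is active in excitatory forebrain neurons and is not an astrocyte promoter. The ages of the mice were not given in the sources used here. The first knockdown compared C57/Bl6 primary neuron cultures of embryonic day 17 infected with a control lentivirus against luciferase, shLuciferase (n = 6), and cultures infected with shTet2 lentivirus (n = 6). Primary neurons labelled shLuc (n = 6) and Tet2 KD (n = 6) made up the second knockdown. Their columns are headed shLucif-3d and shTet2-3d, and the meaning of 3d was not given in the sources used here. The overexpression experiment set primary neurons labelled synGFP (n = 3, written GFP from here on) against those labelled Tet2 OE (n = 3). The labels do not say which libraries came from separate cultures or litters, so p-values measure the spread between these libraries, which may be technical.

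Astrocytes are the glial cells that clear glutamate and potassium from synapses, move water and bicarbonate across their membranes, and supply neurons with metabolites. Primary neuron cultures and sorted neuronal nuclei are meant to hold few of them, and the RNA of astrocyte genes in such samples is commonly read as a measure of glial content. The markers used here differ in specificity. Aqp4 and Aldh1l1 are nearly confined to astrocytes among brain cells, Clu and Aldoc are also transcribed by some neurons, Slc1a3 and Ttyh1 are shared with radial glia, and Gfap rises in reactive astrocytes. In bulk RNA, fewer astrocytes and less RNA per astrocyte cannot be told apart.

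Depth recovered from the tables was 6377244 to 12181847 reads per WT library, 9638526 to 14882249 per cKO library, 3029938 to 43788798 per shLuciferase library and 2709421 to 22091432 per shTet2 library. It was 4785087 to 22781534 reads per shLuc library, 6318167 to 20047667 per Tet2 KD library, 16988077 to 48321564 per GFP library and 66684922 to 73220675 per Tet2 OE library. The overexpression libraries stood apart from each other in scaling: their normalized counts summed to between 22488800 and 68642300, and the median gene was lower in Tet2 OE by 0.75 on the log2 scale with the deposited scaling, by 0.57 with TMM factors and by 1.31 with library totals. Tet2 itself had a log2 fold change of -0.67 in cKO nuclei (adjusted p = 0.632, limma), 0.21 in shTet2 cultures (adjusted p = 0.756), -1.51 in Tet2 KD cultures (adjusted p = 1.13e-04) and 1.20 in Tet2 OE cultures (adjusted p = 0.116). It was therefore called changed only in the second knockdown, and the mean Tet2 level of the libraries labelled shTet2 was not below that of their controls (504 ± 149 against 461 ± 190 normalized counts, SD, n = 6).

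The genes lie on 8 chromosomes of build mm10 (GENCODE annotation), and all are protein coding. Slc1a2 lies at chr2:102658659-102790784, Slc4a4 at chr5:88886818-89239653, Aldh1l1 at chr6:90486427-90600203, Ttyh1 at chr7:4119408-4136708 and Aldoc at chr11:78322968-78327781, each on the plus strand. Clu lies at chr14:65968483-65981547 and Cldn10 at chr14:118787908-118875489, also on the plus strand. Gfap lies at chr11:102887336-102900912 and Slc1a3 at chr15:8634124-8710764, on the minus strand. Exons of Ttyh1 share 180 bases with the antisense gene 9430041J12Rik and 244 bases with the antisense gene D030047H15Rik. Exons of Slc1a2 share 189 bases with the antisense gene Gm13872. Those of Aldh1l1 share 499 bases with the antisense gene Gm15756 and 105 bases with Gm45901 on its own strand. The strand setting of the counting was not given in the sources used here, so the values of these 3 members are uncertain to that extent.

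The second knockdown had the most members called, and the sequence upstream of these genes is shown for the 4 of them that RefSeq's promoter table (GRCm38.p6) holds. Each window is the stretch of the 250 bases before the first listed transcript start that ends where an annotated exon of the gene begins within them, written 5′ to 3′ on the gene's strand, with any match to a searched motif in capitals. They are chr11:78322823-78322967 on the plus strand for Aldoc, chr14:118787621-118787870 on the plus strand for Cldn10, chr11:102897201-102897450 on the minus strand for Gfap and chr7:4119280-4119407 on the plus strand for Ttyh1. The Gfap window lies inside the annotated gene, in an intron of a transcript that starts farther upstream.
Aldoc: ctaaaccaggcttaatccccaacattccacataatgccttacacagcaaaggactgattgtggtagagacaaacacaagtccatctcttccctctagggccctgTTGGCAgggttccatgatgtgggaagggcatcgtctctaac
Cldn10: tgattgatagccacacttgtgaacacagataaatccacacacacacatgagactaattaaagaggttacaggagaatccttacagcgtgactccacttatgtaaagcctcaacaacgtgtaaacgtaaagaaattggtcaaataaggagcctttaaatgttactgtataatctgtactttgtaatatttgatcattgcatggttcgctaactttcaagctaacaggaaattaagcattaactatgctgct
Gfap: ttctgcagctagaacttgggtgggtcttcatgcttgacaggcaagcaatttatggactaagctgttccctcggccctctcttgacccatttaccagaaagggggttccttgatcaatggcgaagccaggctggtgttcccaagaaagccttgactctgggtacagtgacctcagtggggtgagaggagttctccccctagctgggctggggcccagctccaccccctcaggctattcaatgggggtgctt
Ttyh1: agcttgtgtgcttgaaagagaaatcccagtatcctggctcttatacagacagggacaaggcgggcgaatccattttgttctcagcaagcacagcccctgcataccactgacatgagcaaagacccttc
3 motifs of factors known in astrocyte differentiation were searched on both strands: the STAT motif TTCNNNGAA, the NFI half-site TTGGCA and the SOX motif AACAAT. None of the members' windows held more than 1 kind of motif. Of all 32851 windows of 250 bases in the table, 7.02% held the STAT motif, 12.3% the NFI half-site and 9.42% the SOX motif. The 11 starts of the 8 members in the table were likewise counted over the full 250 bases, not cut at an exon. Of these, 2 held the STAT motif (Slc1a3 and the second start of Aldoc). The NFI half-site was in 1 (the first start of Aldoc, shown above), and the SOX motif in 0. At the second start of Aldoc, the 114 bases before the annotated exon held 0 STAT matches. The Cldn10, Gfap and Ttyh1 windows hold none of these letters. These matches describe the sequence and say nothing about binding.

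All 10 markers were detected in every one of the 37 libraries, including the libraries of neuronal nuclei. Levels between genes are compared here per length, as reads per 1000000 reads of the library, leaving out the ribosomal RNA gene Rn45s (RPM), divided by the gene's exon length in kilobases (RPKM). In WT nuclei the order of the mean levels was Clu at 235 RPKM, Aldoc at 172, Slc1a2 at 27.9, Ttyh1 at 21.2, Gfap at 19.9, Slc4a4 at 13.8, Slc1a3 at 8.93, Aldh1l1 at 7.99, Cldn10 at 7.11 and Aqp4 at 2.01. Along that order the ranges over libraries were apart only between Aldoc and Slc1a2 and between Cldn10 and Aqp4, and overlapped for all other neighbours. Aqp4, the water channel of astrocyte endfeet, therefore had the lowest level per length in WT nuclei and rested on 44 to 142 reads per library.

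In shLuciferase cultures the order was Aldoc at 179 RPKM, Slc1a3 at 135, Clu at 96.1, Gfap at 48.6, Aldh1l1 at 36.1, Slc1a2 at 35.7, Ttyh1 at 18.7, Aqp4 at 16.1, Cldn10 at 14.97 and Slc4a4 at 12.4, with overlapping ranges between all neighbours. In shLuc cultures it was Aldoc at 155 RPKM, Clu at 86.6, Aldh1l1 at 48.8, Slc1a3 at 36.8, Ttyh1 at 23.4, Cldn10 at 19.1, Aqp4 at 8.74, Slc1a2 at 8.31, Gfap at 6.47 and Slc4a4 at 3.74. There the ranges of Aldoc and Clu, of Clu and Aldh1l1 and of Cldn10 and Aqp4 were apart. In GFP cultures the levels ran from Aldoc at 252 RPKM and Slc1a3 at 151 over Slc1a2 at 32.7, Clu at 11.1, Slc4a4 at 8.06, Aldh1l1 at 7.05, Gfap at 5.77, Aqp4 at 5.36 and Ttyh1 at 3.11 to Cldn10 at 0.566. The ranges of the first 4 genes were apart from each other, as were those of Ttyh1 and Cldn10. Aldoc, the brain isoform of the glycolytic enzyme aldolase, was first or second in all 4 control groups.

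**Figure D1:**
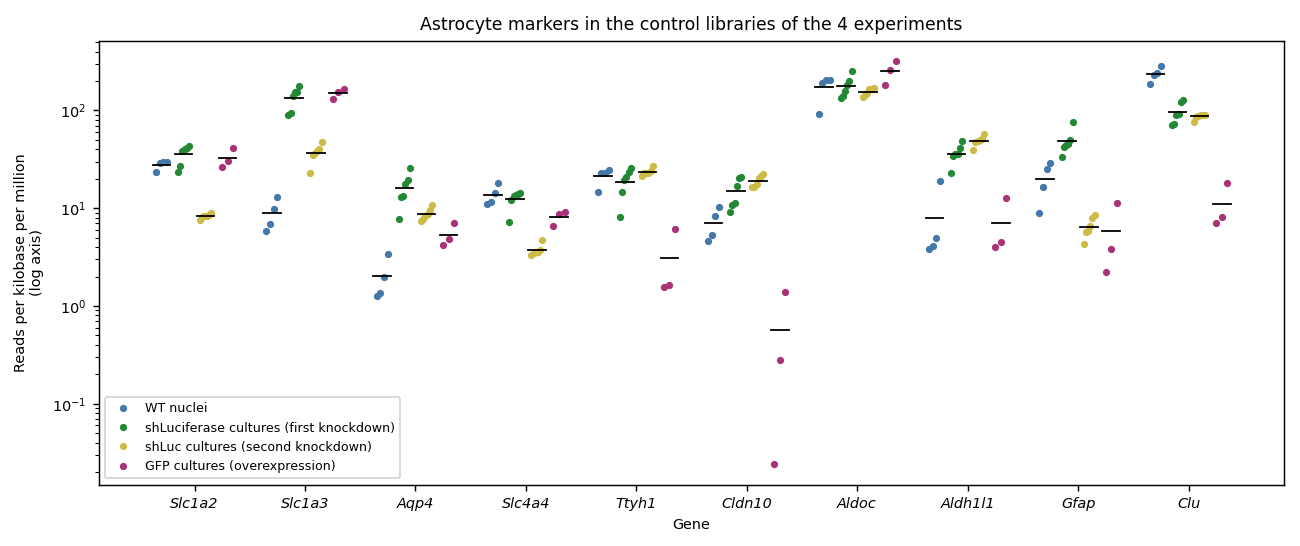
Level of each astrocyte marker in the control libraries, in RPKM on a log axis. Points are libraries (n = 4, 6, 6 and 3) and black bars are group means; Aldoc is first or second in every group, and Cldn10 in GFP cultures is the lowest mean, at 0.566. The tables were normalized separately.

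The control cultures of the 3 experiments did not carry the same set of astrocyte RNAs at like levels. Tables were normalized separately, and the experiments differ in RNA extraction (TRIzol for the nuclei and the first knockdown, RNeasy for the others), so these levels are set side by side without a test. Slc1a3, the glutamate transporter GLAST, had 8.93 RPKM in WT nuclei, 135 in shLuciferase, 36.8 in shLuc and 151 in GFP cultures. Slc1a2, the main glutamate transporter GLT-1, had 27.9, 35.7, 8.31 and 32.7 RPKM in the same order. Gfap, the astrocyte intermediate filament, had 19.9, 48.6, 6.47 and 5.77 RPKM. Clu, the secreted chaperone clusterin, had 235, 96.1, 86.6 and 11.1 RPKM. The order of the groups thus differed between markers, as the plot of control levels shows. WT nuclei were highest for Clu and lowest for Slc1a3, and GFP cultures were highest for Slc1a3 and lowest for Gfap and Clu. The shLuciferase cultures were highest or second for each of these markers.

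The summed level of the 10 markers was set against the sum of 20 neuron markers in each library. The members came to 1743 to 2605 RPM in WT and 1957 to 2352 in cKO nuclei, 2677 to 4141 in shLuciferase and 2211 to 2977 in shTet2 cultures, 1630 to 1893 in shLuc and 1293 to 1476 in Tet2 KD cultures, and 2406 to 3088 in GFP and 2912 to 3504 in Tet2 OE cultures. As a percentage of the neuron sum this was 11.7 to 20.4 in WT, 15.7 to 19.2 in cKO, 20.3 to 35.3 in shLuciferase, 18.3 to 23.1 in shTet2, 14.6 to 16.9 in shLuc, 13.5 to 16.0 in Tet2 KD, 51.0 to 67.5 in GFP and 57.4 to 65.5 in Tet2 OE libraries. The overexpression experiment had the highest ratio in both of its groups, with the neuron sum at 4400 to 5464 RPM against 8444 to 14833 in the other experiments. Only in the second knockdown did the summed member level not overlap between the groups. Its neuron sum did not overlap either, at 10737 to 11258 RPM in shLuc and 8444 to 10506 in Tet2 KD cultures, and the ratio of the sums did. Aldoc (mean 504 to 283 RPM) and Clu (298 to 185 RPM) fell most in that member sum. Ttyh1 rose (149 to 243 RPM), and Aqp4 had 54.5 and 55.1 RPM. The 45 other astrocyte genes overlapped, at 8484.5 to 8631.9 RPM in shLuc and 8147.6 to 9139.3 in Tet2 KD cultures.

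**Figure D2:**
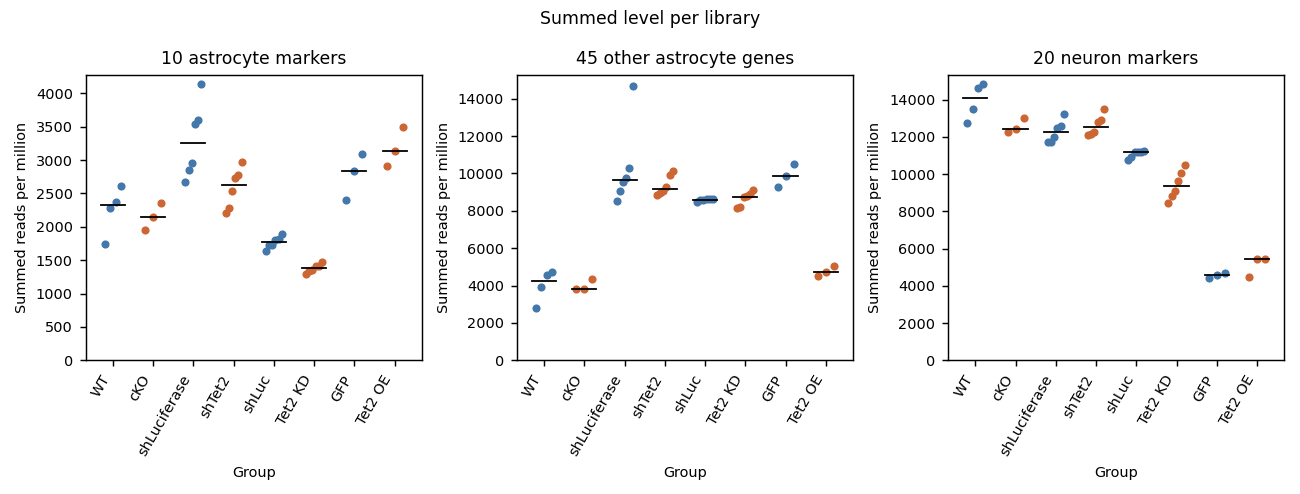
Summed RPM of the 10 astrocyte markers, 45 other astrocyte genes and 20 neuron markers in each library, with black bars at group medians; blue points are controls and orange points the Tet2-directed groups. The member sum is lower in all 6 Tet2 KD libraries than in any shLuc library, while the sum of the other astrocyte genes overlaps between these groups. The sum of the other astrocyte genes is lower in all 3 Tet2 OE libraries than in any GFP library. RPM uses library totals, under which the median gene was lower by 1.31 on the log2 scale in Tet2 OE.

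In hippocampal neuronal nuclei no astrocyte marker was called changed between cKO and WT mice. The largest difference was that of Slc1a3, at -1.05 on the log2 scale (SE 0.34, adjusted p = 0.580, limma). Ttyh1, a chloride channel family protein of astrocyte processes and radial glia, had 0.47 (adjusted p = 0.711). None of the 10 members passed an adjusted p of 0.05, beside 0.0% of all 18780 genes tested. At an unadjusted p under 0.05 there were 2 members and 1309 genes, and edgeR called 1 gene and DESeq2 78 genes.

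Among the membrane proteins, Slc1a3 had normalized counts of 636, 885, 445 and 383 in the WT libraries 1, 2, 5 and 6 and of 174, 410 and 270 in the cKO libraries 3, 4 and 9. 2 of the 3 cKO libraries lay below every WT library, and cKO 4 lay within the WT range. Ttyh1 had 1120, 731, 1177 and 1103 in WT and 1445, 1478 and 1301 in cKO libraries. It was the 1 member whose groups did not overlap, beside 6.96% of all genes tested. Its antisense neighbour D030047H15Rik had means of 47.6 in WT and 16.3 in cKO nuclei. Slc4a4, the sodium bicarbonate cotransporter, had 953, 1229, 913 and 1485 in WT and 1048, 703 and 771 in cKO libraries. cKO 4 and cKO 9 were below all WT libraries for Slc4a4, and the log2 fold change was -0.44 (95% interval -0.93 to 0.06). Slc1a2 had 2994, 2982, 2969 and 2317 in WT and 2898, 2653 and 2227 in cKO libraries, which overlap.

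Aqp4 and Cldn10, a claudin found in astrocytes, had wide intervals. The interval of Aqp4 ran from -1.14 to 1.29 and that of Cldn10 from -1.03 to 1.02 on the log2 scale, so both include a 2-fold change in either direction. Aldh1l1, the folate enzyme that marks astrocytes throughout the brain, had 142, 677, 131 and 171 in WT and 65.5, 177 and 138 in cKO libraries. WT 2 alone was high, and without it the groups still overlap. Aldoc had 5036, 5215, 2250 and 4782 in WT and 5007, 2785 and 2503 in cKO libraries. Here WT 5, cKO 4 and cKO 9 were all low and the remaining libraries were all high, so the groups overlap. Clu had 6277, 7713, 4877 and 6007 in WT and 6858, 8092 and 8703 in cKO libraries, a log2 fold change of 0.35 (95% interval -0.06 to 0.77). Gfap had 534, 827, 287 and 941 in WT and 747, 414 and 225 in cKO libraries, where cKO 9 alone lay below every WT library.

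The median log2 fold change of the members was -0.22, beside -0.09 over all genes tested. Of the 45 other astrocyte genes, of 25 reactive astrocyte genes and of 24 regulators of astrocyte differentiation, 0 were called in the nuclei. Dio2, the deiodinase that activates thyroid hormone in astrocytes, had the smallest p of the other astrocyte genes (adjusted p = 0.580, limma). It had normalized counts of 27.3, 3.41, 50.7 and 15.2 in WT and was listed at 0 in the 3 cKO libraries, where 3 reads would be 2.19 to 3.22. H2-D1 had 0.60 among the reactive genes (adjusted p = 0.693) and Zbtb20, a zinc finger repressor that promotes astrocyte formation, had -1.16 among the regulators (adjusted p = 0.529). The regulators together came to 953 to 1014 RPM in WT and 673 to 747 in cKO libraries, which do not overlap. Zbtb20, which was not called, weighs heavily in that difference, with mean normalized counts of 1841 in WT and 839 in cKO libraries.

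Summed markers of other cells overlapped between the WT and cKO nuclei libraries, and none of these genes was called. The 10 ependymal and choroid plexus genes came to 48.8 to 623 RPM in WT and to 40.6, 1637 and 1825 at the lowest, median and highest cKO library. Ttr weighs heavily in that sum, with mean normalized counts of 1310 in WT and 9074 in cKO libraries (adjusted p = 0.754, limma). The 18 oligodendrocyte lineage genes came to 648 to 1362 in WT and 782 to 1013 in cKO, the 19 microglia genes to 94.0 to 196 and 129 to 173, and the 18 vascular genes to 76.0 to 232 and 146 to 235. Their smallest p belonged to Folr1 (log2 fold change 2.35, adjusted p = 0.742, limma), Mag (-0.84, adjusted p = 0.693), Tmem119 (0.95, adjusted p = 0.805) and Dcn (0.82, adjusted p = 0.708). Nes had 2.88 (adjusted p = 0.711) among the progenitor markers and Syp 0.51 (adjusted p = 0.644) among the neuron markers. Their part in the values of the astrocyte markers was not tested.

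**Figure D3:**
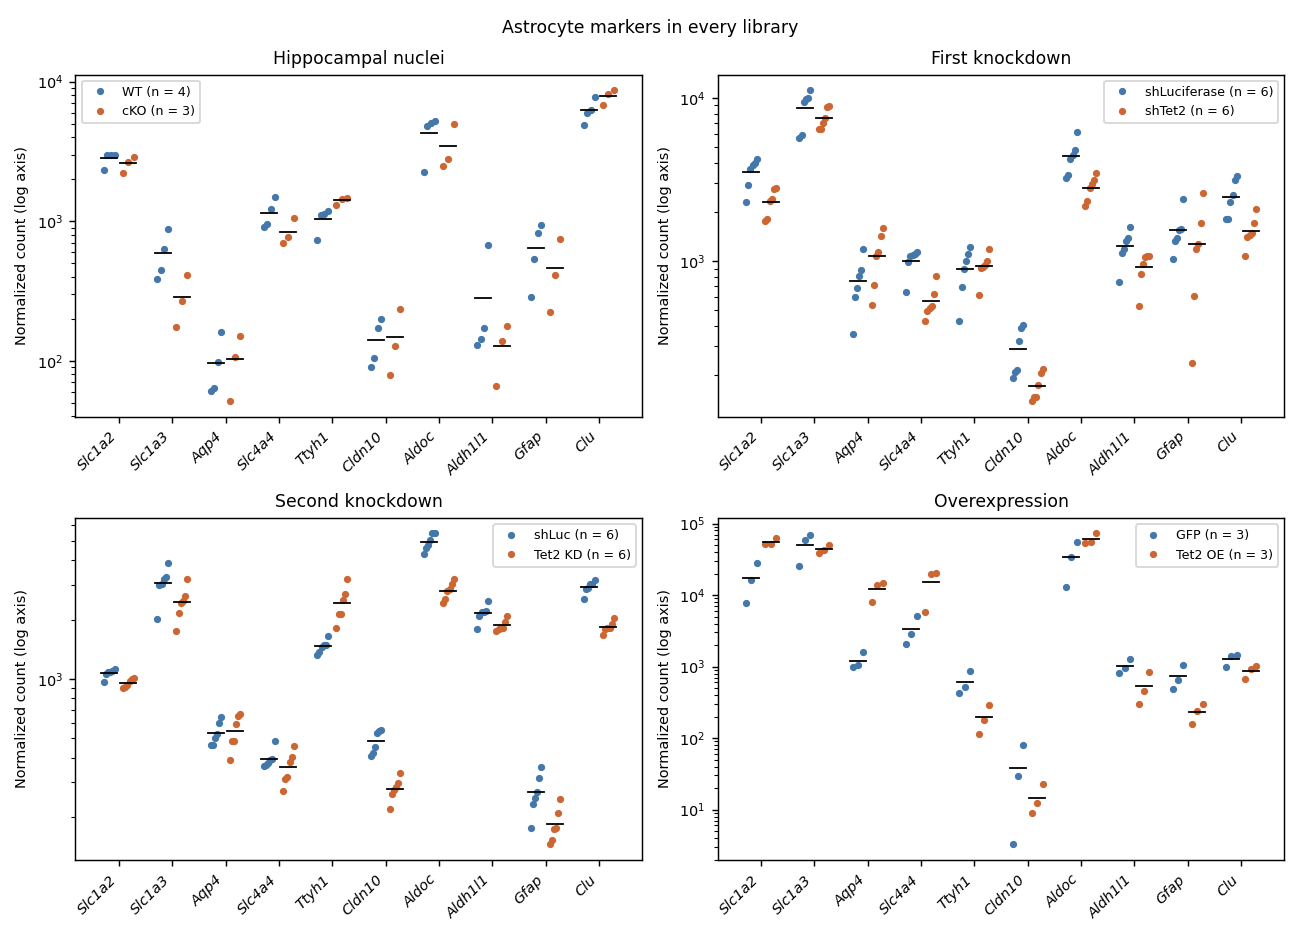
Normalized count of each astrocyte marker in every library of the 4 experiments, on log axes. Points are libraries and black bars are group means; the groups do not overlap for Ttyh1 in the nuclei (higher), for Aldoc, Clu and Cldn10 (lower) and Ttyh1 (higher) in the second knockdown, and for Aqp4, Slc1a2 and Slc4a4 (higher) and Gfap and Ttyh1 (lower) in the overexpression experiment.

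In the first knockdown 3 of 10 markers fell in cultures labelled shTet2 and 0 rose: the bicarbonate cotransporter Slc4a4, the secreted chaperone Clu and the glycolytic enzyme Aldoc. Over all 18315 genes tested, 1.28% were called lower and 0.655% higher. For Slc4a4 the log2 fold change was -0.83 (SE 0.18, adjusted p = 0.0174, limma), for Clu -0.69 (SE 0.18, adjusted p = 0.0464) and for Aldoc -0.62 (SE 0.16, adjusted p = 0.0469). The median over the members was -0.59, beside 0.09 over all genes. Since Tet2 RNA was not lower in these libraries, they are referred to as labelled shTet2.

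Slc4a4 had a lowest, median and highest normalized count of 645, 1082 and 1133 in shLuciferase and of 431, 522 and 806 in shTet2 libraries. The means were 1006 ± 184 and 568 ± 133 (SD, n = 6). 5 of the 6 shTet2 libraries lay below every control, and shLuciferase 1 was the low control at 645. Slc1a2 had 2305, 3789 and 4243 in shLuciferase and 1760, 2382 and 2824 in shTet2 libraries, a log2 fold change of -0.59 (adjusted p = 0.0702), which did not pass. Cldn10 had 193, 271 and 408 against 139, 161 and 218, and its -0.71 did not pass either (adjusted p = 0.211). For Cldn10, 4 of 6 shTet2 libraries were below all controls.

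Slc1a3 had 5693, 9672 and 11187 in shLuciferase and 6434, 7280 and 8910 in shTet2 libraries, so that the shTet2 values lay inside the control range (log2 fold change -0.17, 95% interval -0.52 to 0.17). Aqp4 had 359, 749 and 1182 against 540, 1108 and 1606. Its value of 0.52 was positive, with 2 shTet2 libraries above all controls and an interval of -0.04 to 1.08. Ttyh1 had 430, 948 and 1216 against 616, 935 and 1187, with an interval of -0.34 to 0.57. The membrane proteins were thus divided, with 1 of 6 passing the test.

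Aldoc had 3213, 4366 and 6229 in shLuciferase and 2173, 2898 and 3489 in shTet2 libraries, with means of 4389 ± 1094 and 2822 ± 494 (SD, n = 6). Clu had 1808, 2437 and 3313 against 1074, 1469 and 2085, with means of 2490 ± 641 and 1534 ± 338 (SD, n = 6). For each of these genes 5 of the 6 shTet2 libraries lay below every control. Aldh1l1 had 750, 1256 and 1626 against 531, 1009 and 1075 (log2 fold change -0.42, adjusted p = 0.341). Gfap was the most variable member, with 1032, 1469 and 2396 in shLuciferase and 236, 1231 and 2622 in shTet2 libraries (adjusted p = 0.509). None of the 10 members had groups that did not overlap, beside 2.25% of all genes tested.

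The calls for Aldoc and Clu, with adjusted p just under the threshold, were each lost under 14 of 21 alternatives, while the log2 fold change stayed between -0.70 and -0.51 for Aldoc and between -0.78 and -0.59 for Clu. Without shLuciferase 3, which had the highest member sum (4141 RPM) and the highest sum of other astrocyte genes (14699, against 8532 to 10276 in the other shLuciferase libraries), 0 members were called. Without shLuciferase 1 or 6, or without shTet2 2, 3, 4 or 6, 1 member was called. With TMM factors, library totals, no filter or a pseudocount of 5, 1 member was called, and DESeq2 called 5. All of these calls were lower in shTet2 libraries.

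Of the 45 other astrocyte genes 0 rose and 2 fell in shTet2 libraries: Slc6a11, the GABA transporter GAT-3 (log2 fold change -1.42, adjusted p = 0.0102, limma), and Acsbg1, an acyl-CoA synthetase (-0.59, adjusted p = 0.0259). Their median was -0.46. Of 26 reactive genes 0 were called (smallest p for Clcf1, means 1.09 and 23.99 normalized counts, adjusted p = 0.0925), and of 24 differentiation regulators 0 (smallest p for Nfia, a nuclear factor I protein that switches progenitors to gliogenesis, -0.52, adjusted p = 0.227). Among 15 progenitor markers Nes rose (1.41, adjusted p = 0.0362) and Ptprz1 fell (-0.63, adjusted p = 0.0441). The progenitor markers summed to 1428 to 2413 RPM in shLuciferase and 1132 to 1556 in shTet2 libraries. Among 20 neuron markers Tubb3 (-0.67, adjusted p = 0.00516) and Nefm (-1.18, adjusted p = 0.0344) fell and 18 did not pass. Dcn, a proteoglycan of meningeal fibroblasts, fell (-1.39, adjusted p = 0.00808), 1 of 18 vascular and meningeal genes tested.

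The summed vascular and meningeal genes came to 58.5 to 111 RPM in shLuciferase and 21.2 to 50.4 in shTet2 libraries, which do not overlap. The oligodendrocyte lineage genes came to 562 to 932 and 568 to 708, with 0 of 16 called (Olig1 -0.46, adjusted p = 0.220, limma). The microglia genes came to 24.8 to 58.0 and 40.4 to 67.1, with 0 of 14 called (Csf1r -2.33, adjusted p = 0.224), and Itgam and Tyrobp were listed at 0 in all 12 libraries. The choroid genes came to 15.1 to 70.6 and 24.4 to 77.1, with 0 of 10 called (Kl 1.87, adjusted p = 0.355). Their part in the astrocyte values was not tested.

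In the second knockdown, where Tet2 RNA fell, 4 of the 10 markers fell and 1 rose. Over all 16164 genes tested, 13.2% were called lower and 12.6% higher. Aldoc (log2 fold change -0.82, SE 0.10, adjusted p = 4.12e-06, limma), Clu (-0.67, SE 0.09, adjusted p = 1.30e-05), Cldn10 (-0.80, SE 0.12, adjusted p = 1.00e-04) and Gfap (-0.52, SE 0.17, adjusted p = 0.0297) were lower in Tet2 KD cultures. Ttyh1 was higher (0.70, SE 0.12, adjusted p = 2.21e-04). The median over the members was -0.26, beside -0.02 over all genes.

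Among the membrane proteins, Ttyh1 had a lowest, median and highest normalized count of 1323, 1470 and 1648 in shLuc and of 1809, 2319 and 3211 in Tet2 KD libraries. The groups do not overlap, and the mean rose from 1462 ± 113 to 2415 ± 500 (SD, n = 6). The antisense genes that share exon bases with Ttyh1 were at or below 12.7 in every library of this experiment. Cldn10 had 409, 492 and 551 in shLuc and 220, 278 and 335 in Tet2 KD libraries, so that every Tet2 KD library lay below every control. Its mean fell from 485 ± 66.3 to 279 ± 38.3 (SD, n = 6).

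The other 4 membrane proteins did not pass. Slc1a2 had 964, 1089 and 1121 against 904, 957 and 1007 (log2 fold change -0.16, 95% interval -0.34 to 0.02). Slc1a3 had 2012, 3129 and 3867 against 1746, 2450 and 3206 (-0.33, adjusted p = 0.109). Aqp4 had 462, 514 and 641 against 388, 540 and 666, with an interval of -0.27 to 0.30. Slc4a4, which fell in the first knockdown, had 364, 381 and 485 against 271, 349 and 456 (-0.16, adjusted p = 0.397). For Slc4a4 the highest control, shLuc 1, stood above the others, and 3 of 6 Tet2 KD libraries lay below all controls.

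Aldoc had 4296, 4915 and 5462 in shLuc and 2424, 2811 and 3208 in Tet2 KD libraries. No value was shared between the groups, and the mean fell from 4943 ± 472 to 2801 ± 293 (SD, n = 6), 0.567 of the control mean. Clu had 2540, 2960 and 3172 in shLuc and 1663, 1808 and 2025 in Tet2 KD libraries, again without overlap, with means of 2918 ± 217 and 1834 ± 121 (SD, n = 6). Aldh1l1 had 1795, 2179 and 2473 against 1756, 1814 and 2085, and its -0.20 did not pass (adjusted p = 0.113). Gfap had 175, 259 and 360 against 145, 175 and 246, which overlap. In all, 4 members had groups that did not overlap (Aldoc, Clu, Cldn10 and Ttyh1), beside 12.2% of all genes tested.

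Aldoc and Clu were called in this experiment under all 22 alternatives tried. Gfap was no longer called without shLuc 1, shLuc 7, Tet2 KD 4 or Tet2 KD 5, or in columns 7 to 12 alone. Libraries in columns 1 to 6 alone gave 3 called members without Cldn10 (-0.66) and Ttyh1 (0.63), and those in columns 7 to 12 alone gave 4.

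**Figure D4:**
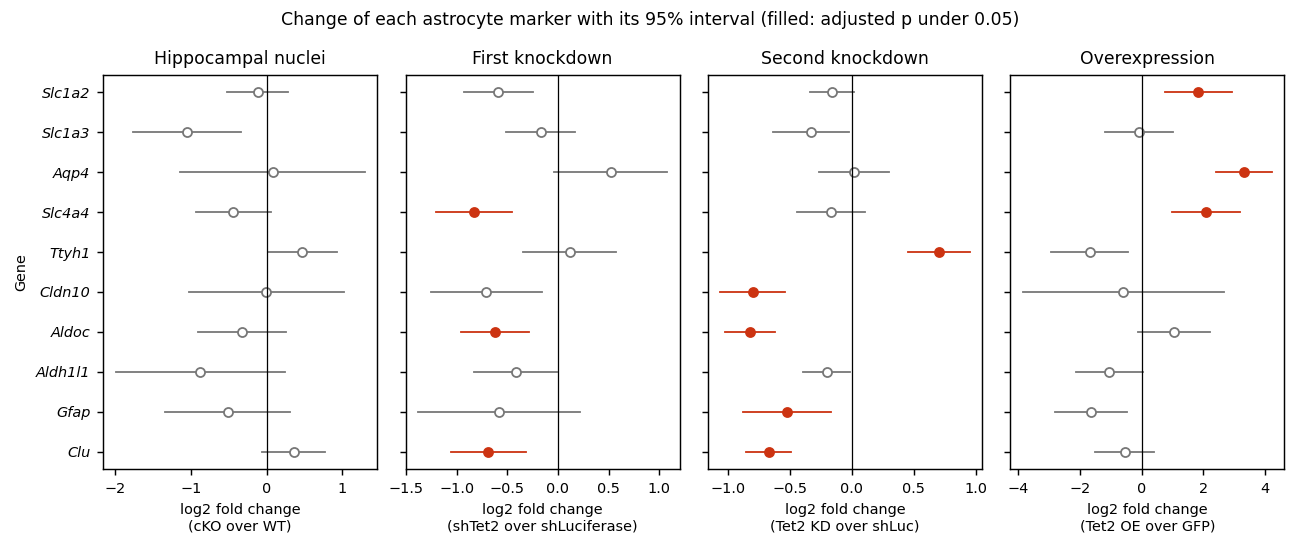
Log2 fold change of each astrocyte marker in the 4 experiments, from limma on log2(normalized count + 1), with 95% intervals; filled red points have an adjusted p under 0.05. Aldoc and Clu lie left of 0 and are filled in both knockdowns, and Aqp4 has the highest value, 3.31, in the overexpression experiment; the axes differ between experiments.

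Of the 45 other astrocyte genes, 16 fell, 4 rose and 25 did not pass in Tet2 KD cultures, with a median of -0.19. The smallest p belonged to Slc6a11 (log2 fold change -1.58, adjusted p = 2.37e-08, limma), Grm3, the astrocytic metabotropic glutamate receptor (-1.07, adjusted p = 3.96e-06), and Gpr37l1, an astrocyte receptor (-2.26, adjusted p = 3.12e-05). Of 24 differentiation regulators 7 fell and 1 rose. Nfib (-1.03, adjusted p = 2.20e-05) and Nfia (-0.85, adjusted p = 5.98e-05), nuclear factor I proteins, and Rbpj, the DNA-binding factor of Notch signalling (-1.26, adjusted p = 4.19e-04), were among those that fell. Of 26 reactive genes 3 rose and 2 fell: H2-D1, a class I histocompatibility gene, rose (0.50, adjusted p = 0.00174), while B3gnt5 (-1.49, adjusted p = 4.25e-04) and the lipocalin Lcn2 (adjusted p = 0.00417) fell. Lcn2 was near the detection limit, with means of 3.68 in shLuc and 0.150 in Tet2 KD libraries. The regulators summed to 833 to 892 RPM in shLuc and 717 to 813 in Tet2 KD libraries, without overlap.

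Of 15 progenitor markers 5 fell and 1 rose. Nes, the intermediate filament of progenitors, rose (2.54, adjusted p = 2.32e-09, limma), while Fabp7, the fatty acid binding protein of radial glia (-1.08, adjusted p = 2.29e-04), and Egfr (-0.59, adjusted p = 0.00349) fell. Their sum was 1805 to 2368 RPM in shLuc and 985 to 1694 in Tet2 KD libraries, without overlap. Neuron markers were divided, with 5 of 20 higher, among them Nefl (0.69, adjusted p = 2.31e-05) and Eno2 (0.69, adjusted p = 5.74e-05), and 5 lower, among them Dcx (-1.10, adjusted p = 1.44e-04). Of 16 oligodendrocyte lineage genes 3 fell, namely Cnp (-0.93, adjusted p = 7.97e-06), Pdgfra (-1.25, adjusted p = 0.00739) and Olig1 (-0.46, adjusted p = 0.0383). That list summed to 431 to 555 RPM in shLuc and 229 to 527 in Tet2 KD libraries.

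Of 14 vascular and meningeal genes 3 fell: Dcn (-1.14, adjusted p = 5.62e-04, limma), Kdr (means 3.79 and 0.562 normalized counts, adjusted p = 0.00681) and Pdgfrb (-1.37, adjusted p = 0.0363). Their sum was 20.2 to 31.1 RPM in shLuc and 8.57 to 16.1 in Tet2 KD libraries, without overlap, and Tek and Cdh5 were listed at 0 in all 12. The microglia sum was 28.9 to 40.2 and 26.3 to 50.2, and Itgam, Tyrobp and Siglech were listed at 0 in all 12. Of 9 choroid genes Rarres2 (-1.53, adjusted p = 0.00255) and Folr1 (-1.15, adjusted p = 0.0272) fell, with sums of 26.6 to 168 and 48.7 to 163. Their part in the astrocyte values was not tested.

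A joint fit of all 24 knockdown libraries tested whether the changes differed from one knockdown to the other. A difference was called for 0 of the 10 members, beside 1.83% of 15796 genes tested, with 3 members and 2603 genes at an unadjusted p under 0.05 and 0 members by edgeR. The largest member difference was that of Slc4a4 (second minus first knockdown, 0.66 on the log2 scale, SE 0.23, adjusted p = 0.132, limma), then Ttyh1 (0.59, SE 0.26, adjusted p = 0.259), Aqp4 (-0.50, SE 0.33, adjusted p = 0.464) and Slc1a2 (0.43, SE 0.19, adjusted p = 0.242). The values of Clu were -0.69 and -0.67, with an interval for the difference of -0.40 to 0.43, and those of Aldoc were -0.62 and -0.82, with an interval of -0.59 to 0.19. Cldn10 had -0.71 and -0.80, with an interval of -0.64 to 0.46. That Slc4a4 passed in the first knockdown only, and Cldn10, Gfap and Ttyh1 in the second only, was thus not shown to be a difference between the experiments. Without shLuciferase 1, the low control for Slc4a4 and Ttyh1, 2 members were called (Slc4a4 at 0.79 and Ttyh1 at 0.78).

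In the overexpression experiment 3 of the 10 markers rose in Tet2 OE cultures and 0 fell: the water channel Aqp4, the bicarbonate cotransporter Slc4a4 and the glutamate transporter Slc1a2. Over all 22399 genes tested, 6.19% were called higher and 3.77% lower. For Aqp4 the log2 fold change was 3.31 (SE 0.43, adjusted p = 1.08e-04, limma), for Slc4a4 2.07 (SE 0.52, adjusted p = 0.0181) and for Slc1a2 1.84 (SE 0.52, adjusted p = 0.0326). The median over the members was -0.32, beside -0.75 over all genes. Of all calls 62.2% were higher with the deposited scaling, 70.5% with TMM factors and 32.3% with library totals. With library totals 6 members were called, the same 3 higher and Slc1a3 (-0.80), Gfap (-2.34) and Ttyh1 (-2.39) lower.

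Aqp4 (chr18:15389496-15410982, minus strand, mm10) had normalized counts of 978, 1064 and 1604 in the GFP libraries 4, 5 and 6 and of 7924, 14633 and 14008 in the Tet2 OE libraries 3, 4 and 6. Every Tet2 OE value was above every GFP value, and the mean was 10.03 times the control mean. Per length, Aqp4 moved from 5.36 ± 1.47 to 33.8 ± 13.7 RPKM (SD, n = 3). Slc4a4 had 2094, 2875 and 5153 in GFP and 5736, 20248 and 19974 in Tet2 OE libraries. Tet2 OE 3 was close to the highest control, and in RPM, 83.6 against 70.3 to 97.8 in GFP libraries, it lay within the control range. Slc1a2 had 7816, 16353 and 28403 in GFP and 62132, 51538 and 52038 in Tet2 OE libraries, without overlap.

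The other membrane proteins did not follow. Slc1a3 had 25118, 58430 and 68953 in GFP and 49433, 39070 and 43280 in Tet2 OE libraries, all within the control range (log2 fold change -0.09, 95% interval -1.20 to 1.01). Its sign depended on the scaling, at 0.10 with TMM factors and -0.80 with library totals. Ttyh1 had 878, 431 and 520 in GFP and 291, 181 and 113 in Tet2 OE libraries, which do not overlap, and its -1.68 did not pass (adjusted p = 0.0794). Its antisense neighbours were not negligible here, with means of 198 and 209 in GFP and 72.3 and 9.27 in Tet2 OE libraries. Cldn10 was barely detected, with 80.8, 29.9 and 3.27 in GFP and 12.4, 22.9 and 8.85 in Tet2 OE libraries, from 3 to 61 reads.

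Aldoc had 13157, 34153 and 55112 in GFP and 72868, 55849 and 53480 in Tet2 OE libraries (log2 fold change 1.05, adjusted p = 0.227, limma). GFP 6 reached the Tet2 OE values and GFP 4 was low. Aldh1l1 had 1287, 823 and 947 against 297, 845 and 453, an overlap through Tet2 OE 4 (-1.04, adjusted p = 0.195). Gfap had 1067, 657 and 492 in GFP and 159, 239 and 301 in Tet2 OE libraries. The groups of Gfap do not overlap, and its -1.64 did not pass (adjusted p = 0.0698). Clu had 1398, 982 and 1471 against 1022, 939 and 674 (-0.55, adjusted p = 0.441).

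In all, 5 members had groups that did not overlap (Aqp4, Slc1a2 and Slc4a4 higher, Gfap and Ttyh1 lower), beside 31.4% of all genes tested. DESeq2 called these same 5 members. Aqp4 was called under all 14 alternatives. Without GFP 5, Tet2 OE 4 or Tet2 OE 6 it was the 1 member still called, and without GFP 4 or Tet2 OE 3 there were 2.

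Of the 45 other astrocyte genes 3 rose and 2 fell in Tet2 OE cultures. Ppap2b, a lipid phosphatase (log2 fold change 2.25, adjusted p = 0.00192, limma), was among those that rose, and Hepacam, a cell adhesion protein (-2.62, adjusted p = 0.0238), was among those that fell. The 45 genes summed to 9284 to 10487 RPM in GFP and 4500 to 5031 in Tet2 OE libraries, while the 10 members overlapped. RPM uses library totals, under which the median gene was lower by 1.31 on the log2 scale in Tet2 OE. The same shift applies to every summed RPM of this experiment. Cst3 weighs heavily in the sum of the 45 genes. Its means were 151710 normalized counts in GFP and 43122 in Tet2 OE libraries (adjusted p = 0.0546, limma), which did not pass. Of 24 differentiation regulators 5 rose and 1 fell. Lifr, the receptor of leukaemia inhibitory factor (3.82, adjusted p = 3.09e-05), and Zbtb20 (2.47, adjusted p = 0.00374) rose, and Hes5, a Notch target, fell (adjusted p = 0.0154) from a mean of 124 to 0.239 normalized counts. These list counts use the deposited scaling. Of 27 reactive genes Vim fell (-2.12, adjusted p = 0.00438) and 26 did not pass.

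Among 15 progenitor markers Pax6 rose (2.91, adjusted p = 0.00337, limma) and Fabp7 fell (-2.13, adjusted p = 0.00355). Their sum was 814 to 1189 RPM in GFP and 279 to 469 in Tet2 OE libraries, without overlap. Of 20 neuron markers 6 rose and 0 fell, with Snhg11 (3.18, adjusted p = 1.35e-04), Gad2 (2.25, adjusted p = 0.00200) and Gad1 (1.88, adjusted p = 0.00703) at the smallest p. Of 18 oligodendrocyte lineage genes Olig1 (-3.63, adjusted p = 2.30e-04) and Olig2 (-4.56, adjusted p = 0.0304) fell and Pdgfra rose (2.07, adjusted p = 0.0169). That list summed to 171 to 556 RPM in GFP and 100.3 to 108 in Tet2 OE libraries, without overlap.

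Of 19 microglia genes Cx3cr1 fell (adjusted p = 0.0314, limma), from 58.2, 64.2 and 15.3 in GFP libraries to 0 in all 3 Tet2 OE libraries, where 3 reads would be 2.15 to 3.09. The microglia sum was 103 to 104 RPM in GFP and 23.1 to 33.7 in Tet2 OE libraries. Foxj1, a factor of ciliated cells, fell from a mean of 80.0 to 2.62 normalized counts (adjusted p = 0.0456), 1 of 9 choroid and ependymal genes tested, and of 18 vascular genes 0 passed (Flt1 1.18, adjusted p = 0.156). The vascular sum was 44.6 to 58.5 RPM in GFP and 25.1 to 28.1 in Tet2 OE libraries. Their part in the astrocyte values was not tested.

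The members did not vary as 1 block between libraries of a group. After each gene's group mean was removed, the 45 pairs of members had a median Pearson correlation of 0.22 over the 12 libraries of the first knockdown, from -0.50 (Slc1a3 with Ttyh1) to 0.87 (Aqp4 with Slc1a2), and 33 were positive. In the second knockdown the median was -0.01, from -0.76 to 0.70, and 22 were positive. Libraries of a group share their normalization and differ in depth, and these values are descriptions. Over all 24 libraries, Aldoc followed the mean of the other members most closely (0.62), then Gfap (0.53) and Aldh1l1 (0.51), and Ttyh1 least (0.11).

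The genes outside the set most like the members' mean over these 24 libraries, among 9685 genes with a mean of 50 or more in both tables, were Atp6v0c-ps2 (0.83), Rcbtb2 (0.80), Med17 (0.79), Fam136a (0.78), Sdf2l1 (0.78), Osmr (0.78), Fstl1 (0.77), Cpne3 (0.76), Ilk (0.76) and Fbln5 (0.76). Osmr and Fbln5 were in the list of reactive astrocyte genes, and none of the 10 was in the list of other astrocyte genes. The likeness came from the first knockdown, with correlations of 0.80 to 0.92, while within the second they ran from -0.47 to 0.52. In the first knockdown none of them was called, with adjusted p of 0.249 to 0.877 (limma). In the second, Med17, Sdf2l1, Fstl1 and Fbln5 were higher in Tet2 KD libraries (adjusted p = 0.00672, 0.0143, 0.0126 and 0.0304), and the other 6 did not pass.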

How the data were processed

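The members and gene lists were chosen with earlier results of these data known. Per the labels' protocols, polyA-selected, strand-specific libraries were made; the submitters' processing notes name STAR, RSEM, DESeq2 and build mm10, with versions not given in the sources used here. The deposited signal is a normalized count per gene and library: in each library 100% of values were whole multiples of 1 step, within 0.01 reads, so reads were recovered. Other deposited columns hold the authors' mean signal, log2 fold change and its error, Wald score and p-value, and were not used here. Column numbers of the second knockdown and of the overexpression table do not match the titles. Those columns were therefore assigned to a group, not to a sample, and libraries are named by their column.

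Within each table limma 3.58.1 (R 4.3.3, trended empirical Bayes, two-sided) was fitted to log2(value + 1) of genes with a mean of 0.5 or more, a scale that understates changes of low genes. Calls used a Benjamini-Hochberg adjusted p under 0.05 over all genes. The difference between knockdowns came from 1 fit with a mean per group. Scripts were tested on simulated data. Named genes were the 10 members, the 3 called genes of smallest p per list and experiment (or the 1 of smallest p where 0 were called), the 10 genes most like the members, and Tet2. The antisense genes, Cst3 and Ttr were added after their values were seen. Some genes that this rule names are not reported here. Alternatives were pseudocounts, filters, TMM factors, library totals without Rn45s, edgeR 4.0.16 and DESeq2 1.42.0 on recovered reads, each library left out, and a replicate block; the split of the second knockdown by column number was added after seeing the data. No 2 libraries of a group held identical values, and no pair agreed within sampling noise (smallest chi-square per gene 5.46). Exon lengths came from the GENCODE annotation and promoter sequences from RefSeq (GRCm38.p6).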

Additional observations from a re-analysis of the deposited data

Results flagged for a closer look

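In 6 of the 50 groups of a member's values that were screened, 1 library lay far from the others by Dixon's criterion. It flags about 1 in 20 groups by chance. The cKO, GFP and Tet2 OE groups, with 3 libraries each, were not screened. In WT nuclei, Slc1a2 was low in WT 6 (2317 normalized counts, others 2969 to 2994), Aldh1l1 was high in WT 2 (677.4, others 130.5 to 170.8), Aldoc was low in WT 5 (2250, others 4782 to 5215) and Ttyh1 was low in WT 2 (731.1, others 1103 to 1177). In shLuciferase cultures Slc4a4 was low in shLuciferase 1 (645.2, others 986.0 to 1133). In shLuc cultures Slc4a4 was high in shLuc 1 (485.0, others 363.6 to 395.3).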

How the results depend on the processing

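Of 11 called member values, 0 changed sign under any alternative and 3 (Aqp4 on overexpression, Aldoc and Clu in the second knockdown) were called under all of them. The nuclei count stayed at 0 under every alternative run. Called members of the first knockdown, 3 as reported, were 1 with a pseudocount of 5, with no filter, with TMM factors and with library totals, and 5 with DESeq2; leaving out a library gave 0 to 3. The second knockdown gave 3 of its 5 members from columns 1 to 6 and 4 to 7 without 1 library. Overexpression gave 6 with library totals, 5 with DESeq2 and 1 to 3 without 1 library. The difference between knockdowns gave 0 to 2 without 1 library. The cause of these shifts was not tested, beyond the fewer libraries where 1 was left out.

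With a replicate block, the first knockdown had 1 called member and 206 called genes against 354; same-numbered libraries did not deviate together (correlations -0.14 to 0.06), so the numbers are not taken to pair them, and 1 of 6 numbers matched its own best. No paired analysis was possible because, in the second knockdown and on overexpression, columns carry no number of a sample, and the nuclei groups share none.

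Called genes overall were 0 in nuclei, 1 with edgeR and 78 with DESeq2; 354 in the first knockdown, 805 with DESeq2; 4180 in the second, 1149 and 2655 from columns 1 to 6 and 7 to 12; and 2230 on overexpression, 4061 with DESeq2. Leaving out 1 library moved these by over 1.5 times in the first knockdown (222 without shLuciferase 3, 234 without shTet2 4), on overexpression (642 without GFP 5, and 1229 to 1482 without GFP 4 or Tet2 OE 3, 4 or 6) and for the difference between knockdowns (289 as reported; 148 without Tet2 KD 4, 180 without shLuc 1, 181 without Tet2 KD 10 and 436 without Tet2 KD 5).

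Sign changes were confined to uncalled values; ranges are over fits that left out 1 library. In nuclei, Cldn10 (-0.01) became 0.0095 with TMM factors, 0.077 with edgeR and 0.0576 with DESeq2 (range -0.414 to 0.364), and Aqp4 ranged from -0.256 to 0.504. Ttyh1 in the first knockdown ranged from -0.0786 to 0.229. Aqp4 in the second knockdown became -0.0796 from columns 1 to 6 (range -0.0467 to 0.109). On overexpression, Slc1a3 became 0.104 with TMM factors (range -0.538 to 0.191), and Cldn10 ranged from -1.78 to 0.349. For the difference between knockdowns, Clu became -0.0221 with library totals (range -0.0790 to 0.112), Gfap -0.250 with edgeR (range -0.353 to 0.341), and Cldn10 ranged from -0.203 to 0.0114. Reads per library were lowest for Cldn10 on overexpression (3 to 61) and Aqp4 in nuclei (44 to 194).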
